A study of Mus musculus with 24 samples.

Results

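The 10 genes described here act in heme breakdown and in the storage and transport of iron. They are *Hmox1*, *Hmox2*, *Blvra*, *Blvrb*, *Slc48a1*, *Slc40a1*, *Fth1*, *Ftl1*, *Tfrc* and *Slc11a1*, taken by gene symbol from the 18740 genes listed in the expression files of 24 RNA-seq libraries, and all 10 were listed in every library. The libraries were made from bone marrow-derived macrophages (BMDMs) of C57BL/6 mice aged 10 weeks that were wild-type (WT) or deficient for the dopamine receptor DRD5 (DRD5-/-). The cells were given dopamine (DA) or left untreated, and were stimulated for 12 h either with LPS at 100 ng/ml and IFN-γ at 50 ng/ml, which gives M1 macrophages, or with IL-4 and IL-13 at 10 ng/ml each, which gives M2 macrophages. The 8 combinations of genotype, stimulus and DA had 3 libraries each, and every group, the untreated ones included, had received its stimulus. The DRD5-/- mice had been made with CRISPR-Cas9, and all cells had been grown in L929 conditioned medium. The labels give bone as the tissue and one label speaks of colons, whereas the methods of the study describe bone marrow.

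The set was chosen by the FPKM of *Hmox1*, *Slc48a1* and *Slc40a1*, whose rise in DA-treated M1 WT BMDMs was already known, so every M1 comparison that contains WT libraries is given as a description without a test. The effect of DA in M1 DRD5-/- BMDMs and the comparisons among M2 libraries were tested with limma. Expression was given as FPKM, fragment counts scaled by transcript length and by library size, so levels can be set beside each other per length. A gene was called changed where the adjusted p was under 0.001 and the change reached 1.2-fold on the log2(FPKM + 1) scale, on which the change of genes with a low FPKM is understated. Nothing says that the 3 libraries of a group came from separate mice or cultures, so the p-values measure only the spread between these libraries, which may be technical.

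Macrophages recycle iron from old red cells. Heme leaves the phagolysosome through the heme transporter that *Slc48a1* encodes (HRG1). Heme oxygenases, the inducible one of *Hmox1* and the constitutive one of *Hmox2*, then cleave it to biliverdin, carbon monoxide and iron, and biliverdin reductases (*Blvra*, *Blvrb*) turn biliverdin into bilirubin. The freed iron is stored in ferritin, a shell of heavy (*Fth1*) and light (*Ftl1*) chains, or exported by ferroportin (*Slc40a1*). *Tfrc* encodes the transferrin receptor that brings iron in, and *Slc11a1* encodes NRAMP1, which pumps divalent metals out of the phagosome and of which C57BL/6 mice carry a defective allele. Inflammatory stimuli are known to shift macrophages towards iron retention and IL-4 towards iron release.

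Cells tune several of these mRNAs through iron-responsive elements, hairpins that bind iron regulatory proteins when iron is scarce. In the 5′ UTR such an element blocks translation, and in the 3′ UTR it protects the mRNA from decay. The GENCODE M21 transcripts (GRCm38) of the members were searched on the transcript strand for a C, 5 bases, CAGTG, any base but G, and 5 bases able to pair with the former 5, G-T pairs included. Among the 10 members, 3 had a match in a 5′ UTR and 1 in a 3′ UTR, against 0.11% of all 20899 genes with an annotated 5′ UTR and 0.461% of all 21685 with a 3′ UTR. The matches are shown because they set the storage and export genes apart from the uptake gene, whose mRNA carried 4. Each is 29 bases of the transcript with the hairpin loop in capitals.

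*Fth1*, 5′ UTR, chr19:9982732-9982760, plus strand: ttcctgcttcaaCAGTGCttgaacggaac
*Ftl1*, 5′ UTR, chr7:45459779-45459807, minus strand: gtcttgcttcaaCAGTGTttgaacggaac
*Slc40a1*, 5′ UTR, chr1:45925465-45925493, minus strand: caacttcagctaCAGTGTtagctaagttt
*Tfrc*, 3′ UTR, chr16:32631219-32631247, plus strand: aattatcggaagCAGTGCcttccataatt
*Tfrc*, 3′ UTR, chr16:32631598-32631626, plus strand: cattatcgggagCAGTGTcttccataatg
*Tfrc*, 3′ UTR, chr16:32631663-32631691, plus strand: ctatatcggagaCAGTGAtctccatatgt
*Tfrc*, 3′ UTR, chr16:32631710-32631738, plus strand: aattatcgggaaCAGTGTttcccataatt

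A match describes the letters and does not show that the element was bound. It was found in 4 of the 5 coding transcripts of *Fth1*, in 1 of 2 of *Ftl1*, in 1 of 4 of *Slc40a1* and in 1 of 3 of *Tfrc*. By the RefSeq annotation of GRCm38.p6, the gene *Hmox1* lies on chromosome 8 from 75093618 to 75100593, *Slc48a1* on chromosome 15 from 97784365 to 97792692, *Slc40a1* on chromosome 1 from 45908070 to 45926532 and *Tfrc* on chromosome 16 from 32608896 to 32632794.

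The libraries were macrophage libraries by their markers: all 8 macrophage markers were above 1 FPKM in every library, and their summed FPKM ran from 7263 to 11297. The 6 M1 markers summed to 4377 to 4935 FPKM in M1 and to under 10 FPKM in M2 libraries. All 6 M2 markers were above 1 FPKM in every M2 library, and they summed to 70.9 to 206 FPKM in M1 and to 459 to 1639 FPKM in M2. Of these 6, *Arg1* alone had a higher mean in untreated M1 than in untreated M2 BMDMs. Its means were 64.4 and 28.9 FPKM in WT and 61.4 and 28.5 FPKM in DRD5-/- cells. *Drd5* had no row in the M1 files and was listed between 0 and 0.06 FPKM in the M2 files, WT included, so its level does not check the genotype labels. The 10 erythroid markers, hemoglobins included, summed to at most 3.85 FPKM in any library, so red cell RNA was near 0. The 8 neutrophil markers differed with genotype in M1, with sums from 44.7 to 83.1 FPKM in the 6 WT libraries and from 14.6 to 20.1 FPKM in the 6 DRD5-/- libraries, while *Elane* stood at 0 in all 12. The 5 fibroblast markers differed with the stimulus, with sums from 77.6 to 126 FPKM in M2 and under 5 FPKM in M1. In such bulk libraries, fewer cells of a type and less RNA per cell cannot be told apart.

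Some members were among the most expressed genes of these cells. *Fth1* ranked highest of all genes in each of the 24 libraries, with 14995 to 25238 FPKM, and the 10 members together made up 5.3% to 9.28% of a library's FPKM sum. In untreated M2 WT BMDMs, *Fth1* alone held a mean of 3.12% of the FPKM sum, beside 5.38% for all 10. At the other end, *Slc40a1* ran from 2.37 to 40.9 FPKM and *Tfrc* from 2.83 to 70.4 FPKM. *Fth1* and *Ftl1* have near-identical pseudogene copies in the genome, of which the files listed none, so the levels of the ferritin genes may hold reads of the copies.

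**Figure D1:**
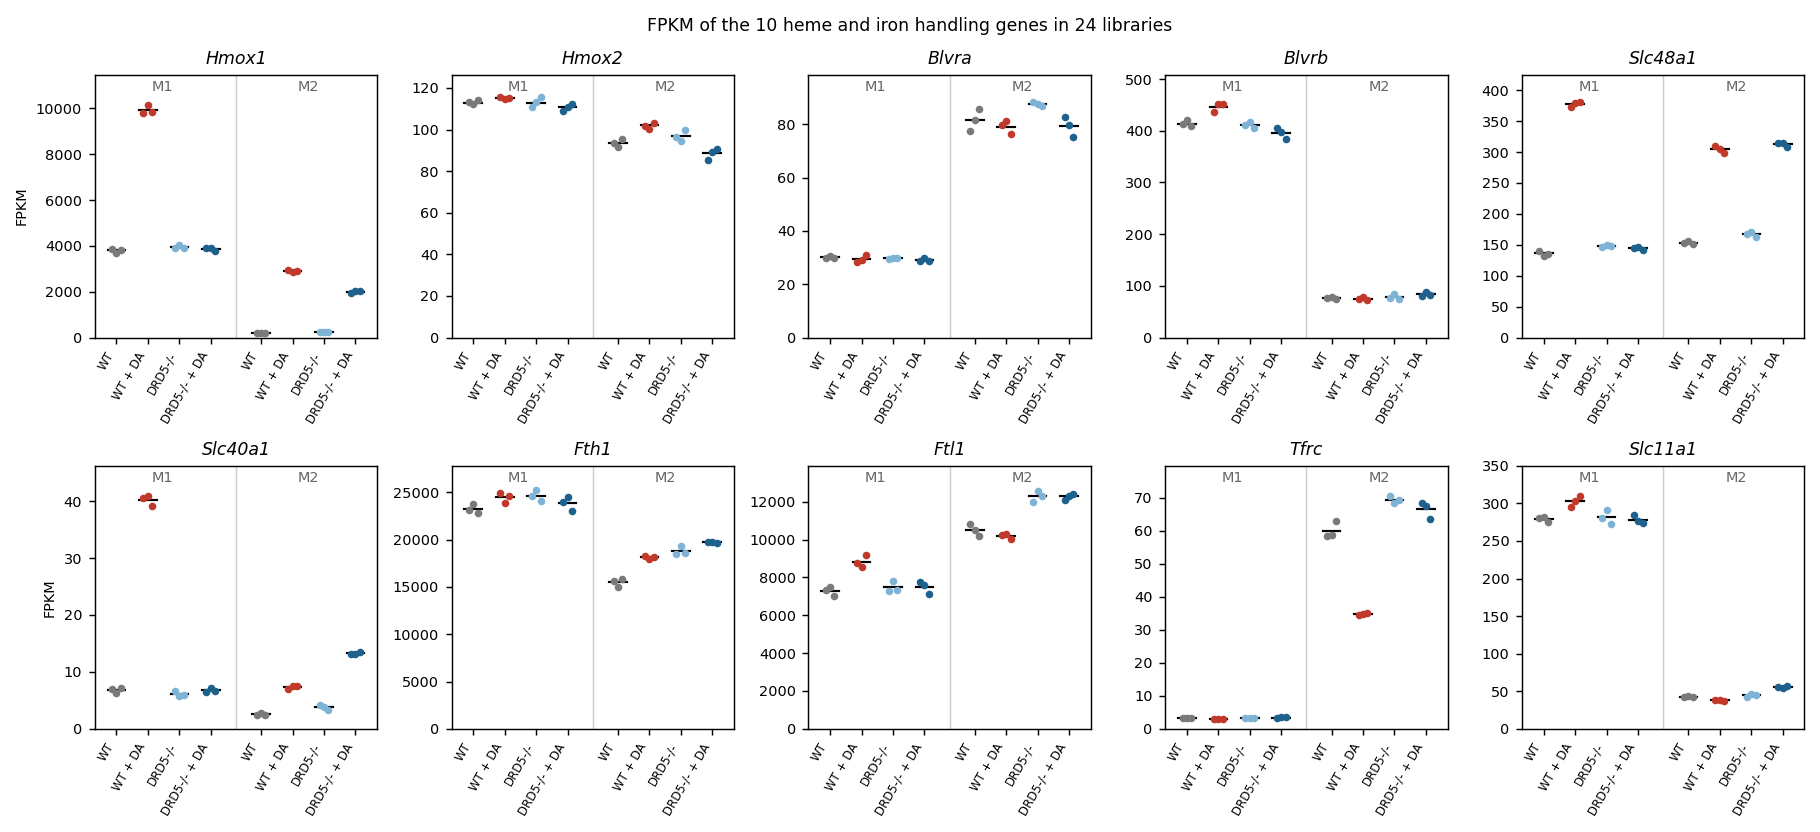
FPKM (linear axes from 0) of the 10 members in the 24 libraries, with points for libraries and a black line for the mean of 3. *Hmox1*, *Slc48a1* and *Slc40a1* stood higher with DA in M1 WT, M2 WT and M2 DRD5-/- BMDMs, and the DA-treated M1 DRD5-/- libraries stood among the untreated M1 libraries.

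In M1 WT BMDMs, the heme oxygenase gene, the heme transporter gene and the ferroportin gene stood far apart with DA. *Hmox1* was at 3870, 3707 and 3841 FPKM in the untreated libraries and at 9780, 10130 and 9849 FPKM in the DA-treated ones. The DA-treated libraries were all above the untreated ones, with a ratio of the means of 2.61 (2.53 to 2.73 over the 9 pairs of libraries), and *Hmox1* moved from rank 11 or 12 among all genes to rank 2, behind *Fth1* alone. *Slc48a1* was at 140, 132 and 136 FPKM without DA and at 373, 379 and 381 FPKM with it. *Slc40a1* was at 6.96, 6.38 and 7.19 FPKM without DA and at 40.5, 40.9 and 39.2 FPKM with it, a ratio of the means of 5.87 (5.45 to 6.4). These levels chose the genes and are a description.

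The other members differed less between the same libraries, and of them only *Ftl1* went beyond 1.2-fold. *Ftl1*, the ferritin light chain, was at 7332, 7500 and 7000 FPKM without DA and at 8758, 8568 and 9171 FPKM with it, or 21.4% higher on average. *Fth1*, *Blvrb*, *Slc11a1* and *Hmox2* were 5.44%, 7.94%, 8.36% and 1.52% higher with DA. *Tfrc* was lower with DA in each library, at 2.96, 2.99 and 2.83 FPKM against 3.32, 3.3 and 3.42 FPKM, and *Blvra* overlapped between the groups. The groups did not overlap for 9 of the 10 members, 8 higher and 1 lower. Of the 10040 M1 genes past the filter on low FPKM, 56.5% did not overlap, 17.5% higher and 39% lower. With median-of-ratios scaling, chosen after seeing the data, the split of all genes turned to 26.8% higher and 26% lower, and that of the members was again 8 and 1. The neutrophil marker sum was 44.7 to 56.6 FPKM without and 63.7 to 83.1 FPKM with DA in these libraries. Of the 8 markers, *S100a8* did not overlap (means of 25 and 41.7 FPKM), while *S100a9*, *Ngp* and *Ltf* did, and the part of these genes in the values was not tested.

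In M1 DRD5-/- BMDMs, no member was called changed by DA, beside 0% of all 10040 tested genes. *Hmox1* was at 3891, 4048 and 3910 FPKM without DA and at 3904, 3921 and 3793 FPKM with it, a log2 change of -0.03 (SE 0.0281, adjusted p = 0.916, limma). *Slc48a1* was at 146, 150 and 147 FPKM without DA and at 144, 147 and 141 FPKM with it, and *Slc40a1* at 6.62, 5.82 and 5.99 FPKM against 6.39, 7.18 and 6.67 FPKM. The groups overlapped for each of the 10 members, beside 8.73% of all tested genes that did not overlap. Their log2 changes ran from -0.06 (*Blvrb*) to 0.12 (*Slc40a1*), with SE from 0.0241 to 0.0547 and the lowest adjusted p at 0.851, and 2 members, the same ones, had an unadjusted p under 0.05. The median log2 change of the members was -0.03, beside 0.00 for all tested genes, of which 569 had an unadjusted p under 0.05 and 0 passed the adjustment.

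Without DA, the M1 levels of the genotypes lay close together. *Slc48a1* was higher in DRD5-/- BMDMs than in WT, at 146, 150 and 147 against 140, 132 and 136 FPKM, or 8.47% on average. *Hmox1* and *Fth1* were also higher without overlap, by 3.78% and 6.23%, and the other 7 members overlapped. That makes 3 of 10 members without overlap, beside 30.9% of all tested genes. With DA, 8 of the 10 members did not overlap between the genotypes, beside 56.2% of all tested genes. *Hmox1* was then 2.56 times, *Slc48a1* 2.62 times and *Slc40a1* 5.96 times as high in WT as in DRD5-/- BMDMs, and the neutrophil marker sums were 63.7 to 83.1 and 17.3 to 20.1 FPKM.

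In M2 WT BMDMs, DA changed 4 members beyond the threshold. *Hmox1*, *Slc40a1* and *Slc48a1* rose and *Tfrc* fell, while the ferritin genes and the biliverdin reductase genes were not called. That is 4 of 10, beside 46.3% of the 10735 tested M2 genes (25.9% higher, 20.4% lower), so the share of called members was no higher than among all genes. The groups did not overlap for 7 of 10 members, beside 76% of tested genes, and the median log2 change of the 10 members was 0.05, beside 0.03 for all tested genes.

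*Hmox1* was at 198, 203 and 202 FPKM in the untreated M2 WT libraries and at 2929, 2870 and 2914 FPKM in the DA-treated ones. The groups were far apart, with a ratio of the means of 14.5 (14.1 to 14.8 over pairs of libraries) and a log2 change of 3.85 (SE 0.02, adjusted p = 1.41e-20). The gene moved from rank 354 to 368 among all genes to rank 11. *Hmox2*, the constitutive isoform, was at 93.7, 91.4 and 95.7 FPKM without and at 102, 100.3 and 103 FPKM with DA, a log2 change of 0.12 (SE 0.0294, adjusted p = 0.00226) that was not called. *Blvra* and *Blvrb*, whose enzymes act after heme oxygenase, overlapped between the groups, with log2 changes of -0.04 and -0.02.

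*Slc48a1* rose from 152, 155 and 152 FPKM to 309, 306 and 299 FPKM, a log2 change of 0.99 (SE 0.0225, adjusted p = 7.21e-14). *Slc40a1* rose from 2.37, 2.77 and 2.51 FPKM to 6.95, 7.6 and 7.6 FPKM. The ratio of its means was 2.9 (2.51 to 3.21), and on the scale with 1 added to the FPKM the log2 change was 1.24 (SE 0.0658, adjusted p = 4.82e-10). *Tfrc* fell from 58.6, 58.8 and 63 FPKM to 34.4, 34.9 and 35.2 FPKM, a log2 change of -0.77 (SE 0.0337, adjusted p = 6e-11). So the mRNA of the iron exporter rose and that of the iron importer fell in the same libraries, without overlap for either.

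*Fth1* was at 15623, 14995 and 15810 FPKM without DA and at 18311, 18000 and 18130 FPKM with it. The groups did not overlap (log2 change 0.23, SE 0.0257, adjusted p = 1.62e-06), but the change of 17.3% was under the 1.2-fold limit. *Ftl1* overlapped at 10812, 10503 and 10182 FPKM against 10229, 10280 and 10028 FPKM. *Slc11a1* went from 42, 43.7 and 42.3 FPKM to 38.4, 38.8 and 37.5 FPKM, again without overlap and under the fold limit (log2 change -0.15, adjusted p = 0.000492). In these libraries the macrophage marker sum was 10719 to 10890 FPKM without and 8349 to 8388 FPKM with DA, the M2 marker sum 555 to 571 and 1604 to 1639 FPKM, and the fibroblast marker sum 124 to 126 and 102 to 103 FPKM. The genes of these lists did not move one way. Of the 6 M2 markers, *Arg1* (means of 28.9 and 592 FPKM), *Mgl2*, *Mrc1* and *Chil3* were higher with DA and *Retnla* (104 and 29.3 FPKM) and *Ccl24* lower. Of the 5 fibroblast markers, *Col1a1*, *Col1a2* and *Col3a1* were higher with DA and *Dcn* (75.1 and 43.3 FPKM) and *Lum* lower, all without overlap. Their part in the changes was not tested.

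In M2 DRD5-/- BMDMs, DA also changed 4 members, all upwards, beside 3.37% of tested genes called higher and 4.02% called in either direction. *Hmox1* was at 241, 244 and 243 FPKM without DA and at 1957, 2009 and 2016 FPKM with it. The ratio of the means was 8.22 (8.04 to 8.36) and the log2 change 3.03 (SE 0.02, adjusted p = 3.49e-19), again with no overlap. *Slc40a1* rose from 4.21, 3.75 and 3.31 FPKM to 13.2, 13.2 and 13.6 FPKM, a ratio of the means of 3.55 (3.13 to 4.1) and a log2 change of 1.59 (SE 0.0658, adjusted p = 4.37e-09). *Slc48a1* rose from 168, 170 and 163 FPKM to 315, 315 and 309 FPKM, a log2 change of 0.90 (SE 0.0225, adjusted p = 1.12e-11).

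The called rise that M2 DRD5-/- BMDMs showed and M2 WT BMDMs did not was that of *Slc11a1*, from 43, 45.9 and 44.9 FPKM to 55.5, 54.3 and 57.4 FPKM (log2 change 0.32, SE 0.0313, adjusted p = 1.28e-05). *Tfrc* overlapped at 70.4, 68.4 and 69.4 FPKM without and 68.5, 67.6 and 63.7 FPKM with DA (log2 change -0.06, SE 0.0337, adjusted p = 0.199). *Hmox2* and *Blvra* were lower with DA without overlap but were not called, with log2 changes of -0.13 (adjusted p = 0.00509) and -0.14 (adjusted p = 0.0137). *Fth1*, *Ftl1* and *Blvrb* had log2 changes of 0.07, 0.00 and 0.10, and none was called. The groups did not overlap for 7 of 10 members, beside 45.3% of tested genes, and the median log2 change of the members was 0.09, beside 0.01 for all tested genes. The FPKM of the DA-treated M2 DRD5-/- libraries summed to 482310 to 487772, below the 494181 to 503799 of the other M2 libraries. The share of called genes that were higher moved with the scaling, from 83.8% as deposited to 69.7% with median-of-ratios scaling and 96.4% with equal sums, and the 4 members stayed called under both.

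**Figure D2:**
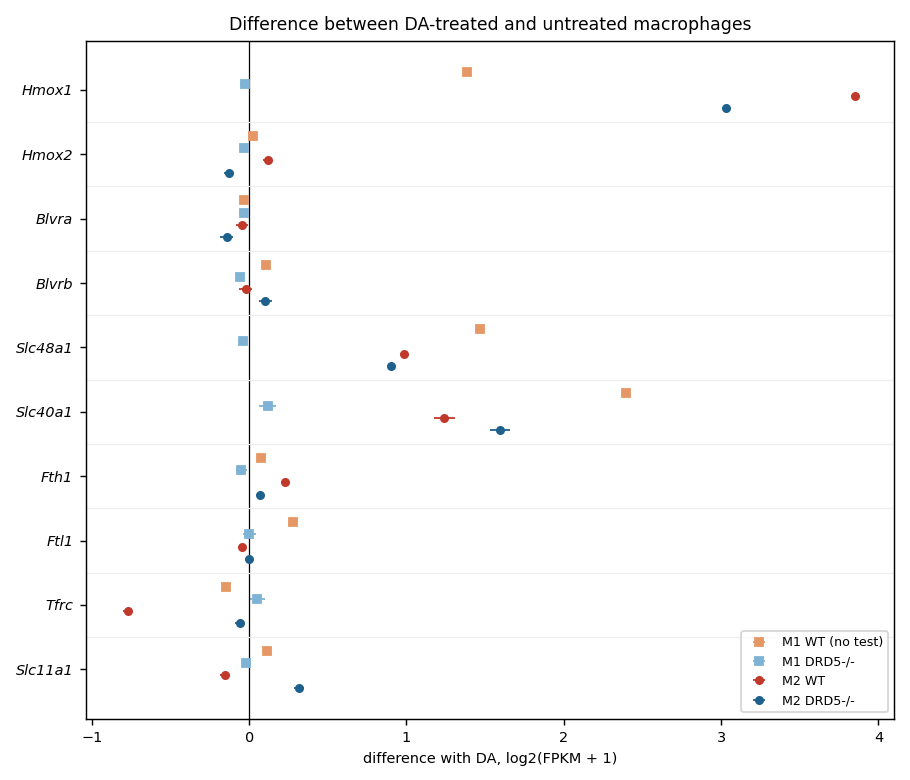
Difference with DA on the log2(FPKM + 1) scale for each member in the 4 settings, with bars for the SE (none for M1 WT, which had no test). The 3 markers far to the right for *Hmox1*, *Slc48a1* and *Slc40a1* are M1 WT, M2 WT and M2 DRD5-/-, and only the M2 WT marker of *Tfrc* lies below -0.5.

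The test of the difference between the DA effects in M2 WT and M2 DRD5-/- BMDMs called 3 members, beside 43.2% of all tested genes (22.8% with a higher and 20.4% with a lower effect in WT). *Hmox1* rose more in WT, with a log2 difference of 0.81 (SE 0.0282, adjusted p = 1.31e-11). *Tfrc* and *Slc11a1* had lower effects in WT, with differences of -0.71 (SE 0.0476, adjusted p = 1.12e-08) and -0.47 (SE 0.0443, adjusted p = 4.07e-07). The effects on *Slc48a1* (difference 0.09, SE 0.0319, adjusted p = 0.0271) and *Slc40a1* (-0.35, SE 0.0931, adjusted p = 0.00389) did not pass the threshold, which does not show them to be equal. Without replicate 1 of the untreated M2 DRD5-/- libraries, the difference for *Slc40a1* was -0.42 and was called. That for *Hmox2*, 0.25 in all libraries, was called at 0.27 without replicate 3 of the DA-treated or replicate 2 of the untreated M2 DRD5-/- libraries.

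Untreated M2 BMDMs of both genotypes differed less. In DRD5-/- cells, 7 of the 10 members were higher without overlap, beside 11.9% of tested genes that were higher in this way and 39.5% that did not overlap either way, and 3 of the 7 were called, beside 1.37% called higher and 5.51% called in either direction. *Slc40a1* was at 4.21, 3.75 and 3.31 FPKM against 2.37, 2.77 and 2.51 FPKM in WT (log2 difference 0.42, SE 0.0658, adjusted p = 0.000339). *Hmox1* was at 241, 244 and 243 FPKM against 198, 203 and 202 FPKM (log2 difference 0.27, SE 0.02, adjusted p = 2.86e-07), and *Fth1* at 18529, 19354 and 18590 FPKM against 15623, 14995 and 15810 FPKM (log2 difference 0.28, SE 0.0257, adjusted p = 2.16e-06). *Ftl1* and *Tfrc*, 17% and 15.5% higher in DRD5-/- cells, were under the fold limit, with adjusted p = 2.95e-05 and 0.000488. With median-of-ratios scaling, *Ftl1* was called at a log2 difference of 0.28. The 3 calls lay close to the limits: without replicate 2 of the untreated DRD5-/- libraries 1 member was called (*Hmox1*), without replicate 1 of the untreated WT libraries 1 (*Fth1*), and without the filter on low FPKM 1 (*Hmox1*). With equal sums, *Hmox1* lost its call at 0.26. *Slc40a1* lost its call with the replicate block (adjusted p = 0.00102) and in a fit of the compared groups alone (adjusted p = 0.00521). Of all called genes, 24.8% were higher in DRD5-/- cells as deposited and 40.2% with median-of-ratios scaling. The fibroblast marker sum was 77.6 to 79.6 FPKM in these cells and 124 to 126 FPKM in WT, with all 5 markers lower without overlap, and its part in the result was not tested.

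With DA, M2 WT and M2 DRD5-/- BMDMs differed in 5 members, beside 49.7% of all tested genes (29.2% higher and 20.4% lower in WT), and 8 of 10 did not overlap, beside 79.1% of tested genes. *Hmox1* was higher in WT, at 2929, 2870 and 2914 against 1957, 2009 and 2016 FPKM (log2 difference 0.54, SE 0.02, adjusted p = 8.56e-12). The other 4 were lower in WT. *Tfrc* was at 34.4, 34.9 and 35.2 against 68.5, 67.6 and 63.7 FPKM (log2 difference -0.92, SE 0.0337, adjusted p = 8.5e-12), and *Slc40a1* at 6.95, 7.6 and 7.6 against 13.2, 13.2 and 13.6 FPKM (-0.77, SE 0.0658, adjusted p = 7.87e-08). *Slc11a1* and *Ftl1* followed with log2 differences of -0.53 (adjusted p = 1.34e-09) and -0.27 (adjusted p = 4.55e-07). The call of *Ftl1* was lost without replicate 3 of either group, at -0.26 in both cases. *Slc48a1* overlapped between the genotypes at 309, 306 and 299 against 315, 315 and 309 FPKM (log2 difference -0.04, SE 0.0225, adjusted p = 0.133). The macrophage marker sum was 8349 to 8388 FPKM in DA-treated WT and 10843 to 11297 FPKM in DA-treated DRD5-/- libraries. The M2 marker sum was 1604 to 1639 and 502 to 516 FPKM, and the fibroblast marker sum 102 to 103 and 84.6 to 85.8 FPKM. *Itgam*, *Retnla* and *Dcn* went against the sums of their lists. The part of the markers in these differences was not tested.

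Pairs of members with related roles moved unequally. The ratio of *Hmox1* to *Hmox2* FPKM, the inducible against the constitutive heme oxygenase, was 33.6 ± 0.589 (SD, n = 3) in untreated and 86.2 ± 1.94 in DA-treated M1 WT BMDMs, and 34.9 ± 0.945 and 35 ± 1.04 in M1 DRD5-/- BMDMs. In M2 it was 2.15 ± 0.0633 and 28.6 ± 0.265 in WT, and 2.51 ± 0.07 and 22.5 ± 0.375 in DRD5-/- BMDMs. The heavy to light chain ratio of ferritin was lower with DA in M1 WT (3.19 ± 0.0555 and 2.77 ± 0.0789) and higher with DA in M2 WT (1.48 ± 0.0678 and 1.78 ± 0.0292). It was 1.53 ± 0.0186 and 1.61 ± 0.0248 in M2 DRD5-/- BMDMs, again without overlap of the libraries.

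The ratio of the iron exporter to the iron importer, *Slc40a1* over *Tfrc*, overlapped between the DA-treated M2 groups. In WT it went from 0.0425 ± 0.00401 to 0.212 ± 0.00851 and in DRD5-/- BMDMs from 0.0541 ± 0.00606 to 0.2 ± 0.0113. In WT both genes were called, and in DRD5-/- BMDMs *Slc40a1* was called and *Tfrc* was not. In M1 WT the ratio was 2.04 ± 0.0959 without and 13.7 ± 0.106 with DA, and in M1 DRD5-/- BMDMs 1.89 ± 0.102 and 1.98 ± 0.0514.

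**Figure D3:**
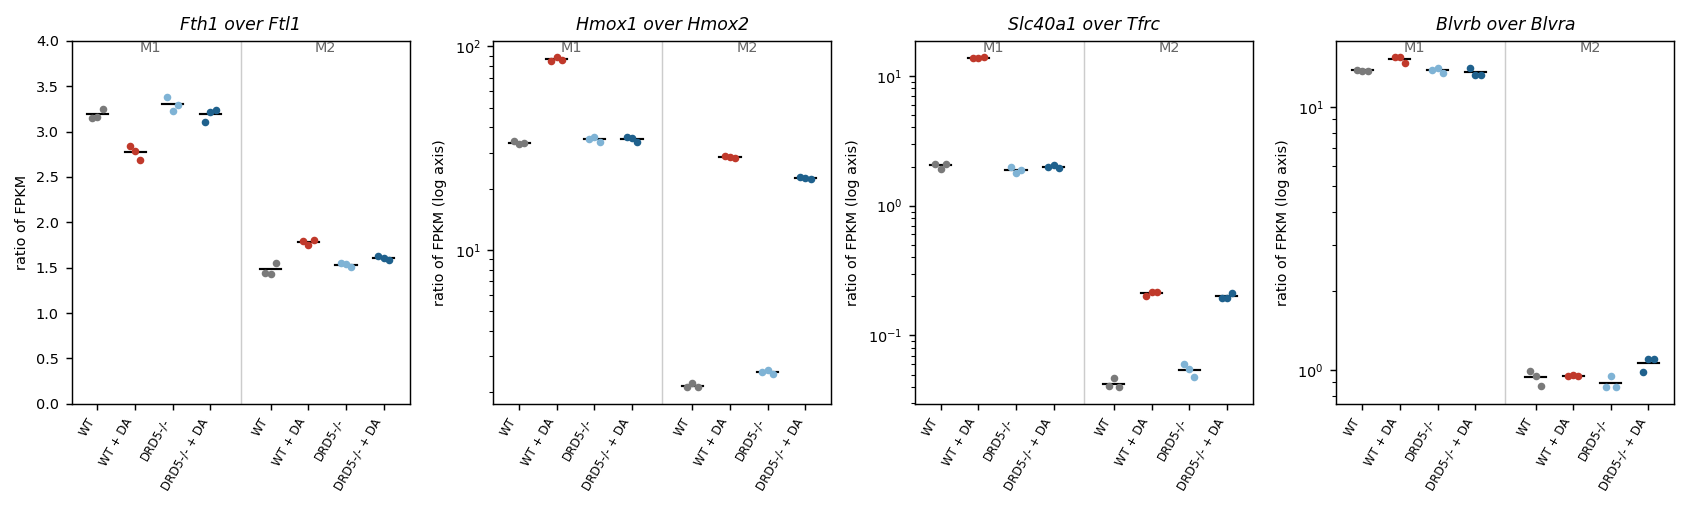
Ratios of FPKM between pairs of members in the 24 libraries (log axes but for *Fth1* over *Ftl1*), with points for libraries and a black line for the mean of 3. With DA, *Hmox1* over *Hmox2* and *Slc40a1* over *Tfrc* stood higher in 3 of the 4 settings, M1 DRD5-/- being the exception.

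Set side by side, the M1 and M2 libraries held these mRNAs at very different levels. Their files list different genes and may have been made apart, which the labels do not say. Stimulus and file set therefore cannot be told apart, and no test was run. No member overlapped between untreated M1 and untreated M2 WT BMDMs, with 6 higher in M1 and 4 in M2. Of the 9620 genes past the filter in both stimuli, 89.6% did not overlap, 28.3% higher in M1 and 61.4% higher in M2. *Tfrc* was at 3.35 ± 0.0643 FPKM in M1 and 60.1 ± 2.47 FPKM in M2, 18 times as high. *Hmox1* went the other way, at 3806 ± 87.1 FPKM in M1 and 201 ± 2.73 FPKM in M2, and so did *Slc11a1* (279 and 42.6 FPKM) and *Blvrb* (414 and 76.4 FPKM). *Blvra* was 2.71 times as high in M2, so *Blvrb* exceeded *Blvra* 13.8 times in M1 and was at 0.938 times its level in M2.

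Over the 8 groups, mean levels were highest in DA-treated M1 WT BMDMs for 6 members, namely *Hmox1*, *Hmox2*, *Blvrb*, *Slc48a1*, *Slc40a1* and *Slc11a1*. All of these but *Hmox2* were above the other 7 groups without overlap, beside 4.9% of the 9620 genes. For *Hmox2*, the lowest DA-treated M1 WT library was at 114.6 FPKM, and the untreated M1 DRD5-/- libraries reached 115.4 FPKM. The levels of *Hmox1*, *Slc48a1* and *Slc40a1* in DA-treated M1 WT BMDMs had chosen the set. For *Slc40a1* the order went on with DA-treated M2 DRD5-/- (13.3 ± 0.225 FPKM), apart from the next, then DA-treated M2 WT (7.38 ± 0.375 FPKM) and the other 3 M1 groups, each of which overlapped with its neighbour. Untreated M2 DRD5-/- (3.76 ± 0.45 FPKM) and untreated M2 WT (2.55 ± 0.203 FPKM) were lowest and apart from each other. For *Tfrc* the 4 M2 groups led, with untreated and DA-treated DRD5-/- overlapping at the top, and DA-treated M1 WT was lowest. For *Fth1* the 4 M1 groups led and overlapped one with the next, and for *Ftl1* the M2 groups led, DRD5-/- above WT.

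The wider pathway was read from a list of 66 other genes of heme synthesis, heme and iron transport, ferritin turnover, mitochondrial iron and regulation, of which 48 passed the filter on low FPKM in each stimulus. With DA in M2 WT BMDMs, 26 of the 48 were called, 13 higher and 13 lower, or 54.2%, close to the 46.3% of all genes, and their median log2 change was -0.02. In M2 DRD5-/- BMDMs 2 were called, or 4.17%, close to the 4.02% of all genes. These were *Nr1h3* and *Hif1a*, the latter encoding the hypoxia factor HIF-1α and named after its value was seen (log2 change 0.30, adjusted p = 2.19e-05). Without replicate 1 or 3 of the DA-treated or replicate 2 or 3 of the untreated M2 DRD5-/- libraries, 1 was called, and with equal sums 4. In M1 DRD5-/- BMDMs 0 of the 48 were called.

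Of the 11 tested regulators, 4 were called lower, 1 higher and 6 not called with DA in M2 WT, beside 20.4% of all genes called lower and 25.9% called higher. *Nfe2l2*, which encodes NRF2, an activator of *Hmox1* and of ferritin genes, fell from 161, 164 and 167 FPKM to 94.8, 93.3 and 93.3 FPKM (log2 change -0.80, SE 0.0225, adjusted p = 5.71e-13). *Bach1*, the heme-sensing repressor of the same genes, fell from 26.9, 26.5 and 27.1 FPKM to 15.3, 16.6 and 16 FPKM (log2 change -0.71, SE 0.0342, adjusted p = 1.59e-10). So the mRNAs of an activator and of a repressor of *Hmox1* fell together where *Hmox1* rose. In M2 DRD5-/- BMDMs, where *Hmox1* also rose, neither was called, with log2 changes of 0.06 for *Nfe2l2* (adjusted p = 0.0519) and 0.24 for *Bach1* (adjusted p = 0.000203, under the fold limit). The difference between the genotypes was called for both, at -0.86 and -0.95. The part of these mRNAs in the rise of *Hmox1* was not tested.

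*Nr1h3*, which encodes the liver X receptor alpha, fell in M2 WT from 18.6, 19.4 and 20.4 FPKM to 8.99, 8.61 and 9.74 FPKM (log2 change -1.02, SE 0.0512, adjusted p = 2.74e-10), and also fell in M2 DRD5-/- BMDMs by 0.32 on the log2 scale (adjusted p = 0.000425). *Mafg*, a small MAF partner of NRF2 and BACH1, rose in M2 WT by 0.40 on the log2 scale (adjusted p = 1.58e-08). *Keap1*, which holds NRF2 inactive, had a log2 change of -0.21 and was under the fold limit. *Aco1* and *Ireb2*, the genes of the iron regulatory proteins, had log2 changes of -0.03 (adjusted p = 0.458) and 0.10 (adjusted p = 0.046). *Spic*, a transcription factor of red pulp macrophages that is induced by heme, stayed under the filter in M2, at 0.12 to 0.27 FPKM in DA-treated WT and 0.92 to 1.68 FPKM in DA-treated DRD5-/- libraries. In M1 WT BMDMs *Spic* was at 4.18, 4.56 and 4.29 FPKM without and 7.89, 7.31 and 7.42 FPKM with DA, *Bach1* at 23, 23.2 and 23.5 FPKM without and 30.3, 29.6 and 29.7 FPKM with DA, and *Nfe2l2* at 96.2, 94.2 and 98.9 FPKM without and 100.5, 101 and 100.6 FPKM with DA.

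Among ferritin turnover and iron chaperone genes, 1 of 3 was called in M2 WT, beside 46.3% of all tested genes. *Ncoa4*, the receptor that carries ferritin to the lysosome for iron release, fell from 143, 146 and 144 FPKM to 54, 52.9 and 52.7 FPKM (log2 change -1.42, SE 0.0212, adjusted p = 1.28e-15). In M2 DRD5-/- BMDMs it stood at 133, 132 and 132 FPKM without and 148, 147 and 143 FPKM with DA, a rise under the fold limit (log2 change 0.14, adjusted p = 0.000254). The difference between the genotypes was called at -1.56 (adjusted p = 6.39e-14), beside 20.4% of all tested genes called with a lower effect in WT. *Ncoa4* was named for its fall with DA in M2 WT, so the choice itself favored a lower effect in WT. In M1 WT BMDMs *Ncoa4* was at 45.7, 45.2 and 46.1 FPKM without DA and at 59, 56.9 and 56.1 FPKM with it, so its order was the opposite of that in M2 WT.

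Of 6 tested genes of iron uptake and reduction, 2 rose and 2 fell in M2 WT, beside 25.9% of all genes called higher and 20.4% called lower. The metal importer genes *Slc39a14* and *Slc39a8* rose by 0.62 and 0.51 on the log2 scale (adjusted p = 2.87e-08 and 3.06e-05), and *Mcoln1* and *Slc11a2*, which encode an endolysosomal cation channel and the endosomal iron transporter DMT1, had log2 changes of -0.52 and -0.46 (adjusted p = 6.88e-08 and 3.06e-08). Both tested genes of the export, oxidation and hepcidin group were called lower, beside 20.4% of all genes. *Cp*, the ferroxidase ceruloplasmin, went from 3.89, 3.83 and 3.81 FPKM to 1.53, 2.03 and 2.23 FPKM (log2 change -0.73, adjusted p = 4.43e-07). *Hfe* had a log2 change of -0.55 (adjusted p = 3.73e-10).

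Of 7 tested genes of heme transport and scavenging, 2 rose and 2 fell, beside 25.9% of all genes called higher and 20.4% called lower. *Hp*, encoding the hemoglobin scavenger haptoglobin, fell from 10.7, 9.29 and 10.6 FPKM to 4.36, 4.33 and 3.79 FPKM (log2 change -1.11, SE 0.0683, adjusted p = 2.33e-09), and *Flvcr1*, encoding a heme exporter, had a log2 change of -0.28 (adjusted p = 1.39e-05). *Slc46a1* and *Lrp1*, the latter encoding the receptor for heme bound to hemopexin, rose by 0.40 and 0.36 on the log2 scale (adjusted p = 1.37e-05 and 2.6e-08). Among heme synthesis genes, *Alad* rose (log2 change 0.33, adjusted p = 0.000156) and *Urod* fell (-0.49, adjusted p = 2.1e-08). Of the 11 mitochondrial iron and iron-sulfur cluster genes, 6 rose, beside 25.9% of all genes called higher. The largest rises were those of the mitochondrial iron importer *Slc25a37* (log2 change 0.59, adjusted p = 3.17e-07) and *Glrx5* (0.46, adjusted p = 3.52e-07), and the scaffold gene *Iscu* fell (-0.48, adjusted p = 7.72e-08).

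**Figure D4:**
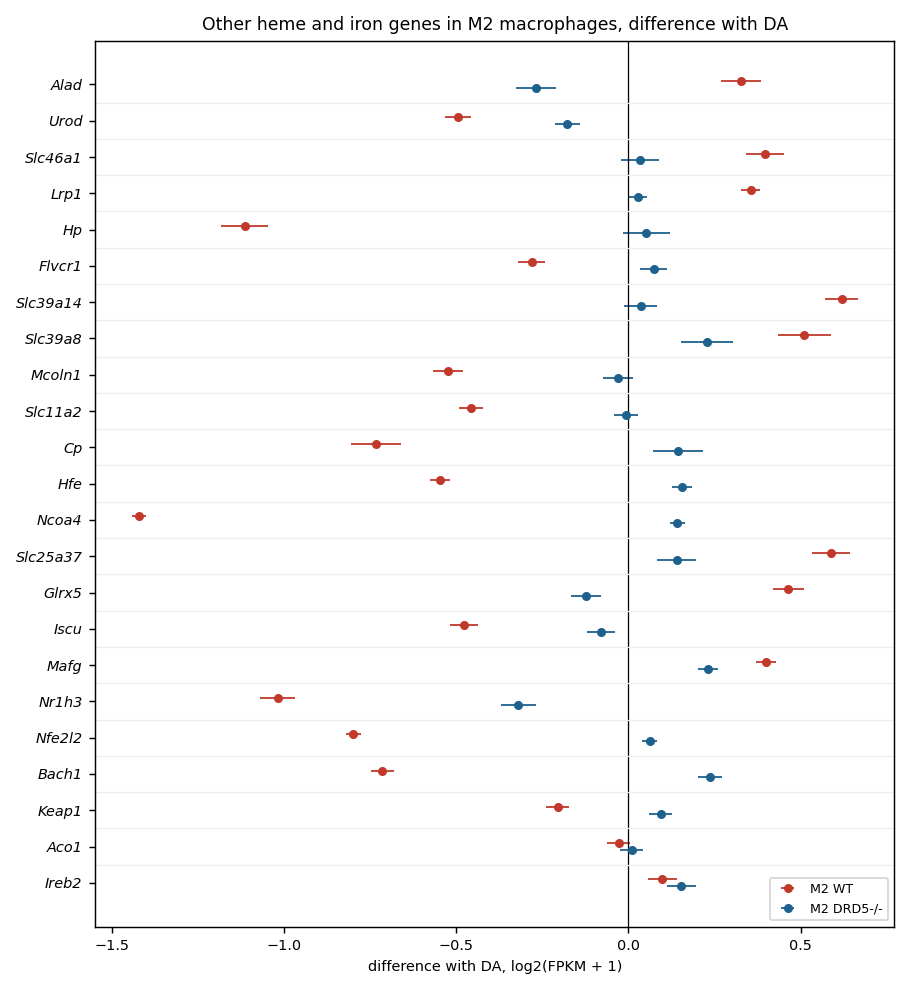
Difference with DA in M2 BMDMs on the log2(FPKM + 1) scale, with bars for the SE, for genes of the wider list. *Ncoa4*, *Hp*, *Nr1h3*, *Nfe2l2*, *Cp* and *Bach1* have WT markers below -0.7, and the DRD5-/- markers of all genes shown lie between -0.32 and 0.24. Most genes shown were picked by their called change with DA in M2 WT, so a wider spread of the WT markers was built in. *Hif1a*, called in M2 DRD5-/- BMDMs, is not shown.

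Some genes outside the list followed the members across libraries. Pearson r of log2(FPKM + 1) was taken over the 12 M1 and over the 12 M2 libraries. The ranking was by the lower of both among 9616 genes, and the members were left out of it. *Hmox1* was then followed most closely by *B4galt6* (0.977), *Ikbkg* (0.97), *Jag1* (0.965), *Clec4d* (0.959) and *Ptpra* (0.959). *Slc40a1* was followed by *Clec4d* (0.941), *Specc1* (0.928), *Ccdc88a* (0.927), *Jun* (0.926) and *Nrp2* (0.915), and the genes close to *Tfrc* included *Gng12* (0.939), *Spata2* (0.936), *Sowahc* (0.93) and *Creg2* (0.93). Between members, the r of *Hmox1* and *Slc48a1* was 0.999 in M1 and 0.989 in M2, and that of *Hmox1* and *Tfrc* -0.886 and -0.605. These values are a description: the libraries fall into separate groups by DA and genotype, which alone give high values. The gene most like *Hmox1* outside the members, *B4galt6*, was at 20.3 ± 0.0781 and 32.4 ± 0.99 FPKM without and with DA in M2 WT, and at 22.8 ± 0.402 and 31.7 ± 0.623 FPKM in M2 DRD5-/- BMDMs.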

How the data were processed

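Sequencing was on a BGISEQ-500. The authors mapped filtered reads with HISAT2 and normalized them to FPKM, while the submitters' processing notes name Bowtie2 2.2.5 and GRCm38.p6. The deposited files hold FPKM with 2 decimals and no counts, so the depth per library is unknown and no counting interval is given. There were 18063 genes in each M1 file and 17786 in each M2 file. For each stimulus (12 libraries), genes that reached 1 FPKM in 3 or more libraries entered a limma fit (limma 3.58.1, R 4.3.3) of log2(FPKM + 1), with a mean per group, an intensity trend and Benjamini-Hochberg adjustment over all tested genes. The cutoff follows the methods of the study. Ranges of ratios are over the 9 pairs of libraries. The fit was tested on simulated data. Tables and figures used Python with numpy, pandas and matplotlib.

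The members and lists were chosen with earlier results of these data known. The named genes were the 10 members, 6 regulators, per role the 2 largest called rises and falls with DA in M2 WT, and the 5 genes most correlated with each of *Slc40a1*, *Hmox1* and *Tfrc*, of which some are not reported here. The marker lists were read as summed FPKM; the 6 lymphocyte markers summed to at most 0.47 FPKM in any library. Alternatives were other pseudocounts, filters, scalings, thresholds, fits and the leaving out of each library. The replicate numbers did not pair libraries (mean residual r of same-numbered libraries -0.0208 in M1 and -0.016 in M2).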

Additional observations from a re-analysis of the deposited data

Results flagged for a closer look

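The effect of DA differed between M2 WT and M2 DRD5-/- BMDMs, by the interaction term of the fit, for 3 of the members. For *Hmox1* the difference on the log2 scale was 0.81 (SE 0.0282, adjusted p = 1.31e-11), with all 6 DA-treated libraries above all 6 untreated ones. For *Tfrc* it was -0.71 (SE 0.0476, adjusted p = 1.12e-08): the 3 DA-treated WT libraries were below the untreated ones, and the DRD5-/- libraries overlapped. For *Slc11a1* it was -0.47 (SE 0.0443, adjusted p = 4.07e-07), with the DA-treated libraries below the untreated ones in WT and above them in DRD5-/-. Groups of 3 libraries were too small for a test of outlying libraries.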

How the results depend on the processing

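At a 2-fold limit, 2 members were called with DA in M2 WT, 2 in M2 DRD5-/-, 0 between untreated M2 genotypes, 0 between DA-treated M2 genotypes and 0 for the difference of the effects, with 3 pathway genes in M2 WT and 0 in M2 DRD5-/-. Without the filter, 1 member was called between untreated M2 genotypes and 1 pathway gene with DA in M2 DRD5-/-, where equal sums gave 4 and a fit without the trend 1. Leaving out 1 library gave 1 to 3 members between untreated M2 genotypes and 1 to 3 pathway genes with DA in M2 DRD5-/-. Of the 189 counts recomputed, 172 stayed within 1.5 times the reported one. The share over all genes is not set beside the counts of this paragraph. They show only how a count depends on the setting, not whether it is high or low.

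The signs that turned were of uncalled log2 values near 0. For *Ftl1* with DA in M1 DRD5-/- the value was -0.0021 with median-of-ratios scaling and ran from -0.0235 to 0.0377 without 1 library. With DA in M2 DRD5-/- it was 0.0476 with equal sums and ran from -0.0195 to 0.0161. Leaving out 1 library gave -0.0424 to 0.0073 for *Slc11a1* in M1 DRD5-/-, -0.0479 to 0.0056 for *Blvrb* with DA in M2 WT, -0.0185 to 0.0615 for *Blvrb* between untreated M2 genotypes and -0.0362 to 0.0306 for *Blvra* between DA-treated M2 genotypes. The cause was not tested.

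With the replicate block, the counts within the members and the pathway list stayed within 1.5 times, and the log2 difference of *Slc40a1* between untreated M2 genotypes, 0.42, lost its call at an adjusted p of 0.00102; it changed no other call of a member. In M1, 2 of 12 libraries correlated best with a library of their own number, and in M2 4 of 12. No scaling moved the median of all genes by over 0.1. The untested M1 comparisons with WT libraries held 40 log2 values of the members. Median-of-ratios scaling moved 26 of these 40 by more than the spread of the libraries, upwards by 0.0662 to 0.0782. The sign turned for 2 of the 26, both of *Blvra*. Tested values were compared by call and sign alone, so their moves were not set against this spread. Depth is unknown, so the precision of low genes such as *Slc40a1* rests on the 3 libraries of a group.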
